A study of Rattus norvegicus with 4 samples.

Results

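The genes described here are the eukaryotic translation initiation and elongation factors of rat soleus, a slow postural hindlimb muscle. They were chosen by name, as the probe sets that the platform annotation pairs with exactly 1 gene whose symbol begins with Eif or Eef and a digit. That gave 60 of the 14217 genes on the array, on 93 of 31042 probe sets, with 49 Eif genes and 11 Eef genes. The prefix also takes in the kinases of eIF2 and eEF2, the eIF4E-binding proteins and 3 methyltransferases of eEF1A. A further 5 probe sets list such a gene together with another and were left out.

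The animals were male Wistar rats, 10 weeks old when the diets began and labelled 14 weeks old. The genistein groups ate a diet with 0.05% of this soy isoflavone (0.5 g per kg of diet), and the control groups ate a modified AIN-93G diet with corn oil in place of soybean oil. Diets lasted 24 days. Every rat had its left sciatic nerve cut on day 14 and a sham operation on the right leg. Soleus was taken 10 days after surgery, so all rats of both diets carried 1 denervated and 1 sham leg. The 4 groups were genistein diet denervated, genistein diet sham, control diet denervated and control diet sham. Each was RNA of 8 rats pooled on 1 array, so the values have no replicates and no errors, no test was run, and both legs of a diet come from the same animals. In whole muscle, fewer cells of a type and less RNA per cell cannot be told apart.

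Protein synthesis starts when eIF2, carrying the initiator tRNA, and eIF3 join the small ribosomal subunit, and the eIF4F complex (the cap-binding protein eIF4E, the scaffold eIF4G and the helicase eIF4A) brings the mRNA. Growth signals through the kinase mTOR release eIF4E from its binding proteins, and stress kinases stop initiation by phosphorylating eIF2, whose recycling needs the exchange factor eIF2B. In elongation, eEF1A delivers aminoacyl-tRNA, eEF1B recharges eEF1A with GTP, and eEF2 moves the ribosome along until eEF2 kinase switches it off. Skeletal muscle fibres use the eEF1A2 form in adult life, whereas eEF1A1 is the form of most other cells.

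The sham and denervated labels were checked on 8 genes that respond to nerve loss. Their summed signal was 57407 units in genistein denervated and 8744 in genistein sham muscle, and 64030.3 units in control denervated and 10743 in control sham muscle, with 8 of 8 higher after denervation in both diets. The treatment field of 2 samples contradicts their titles, and the titles were followed. Slow fibre markers were bright on all arrays, Myh7 reading 24104 and 46466 units in genistein denervated and sham muscle and 29532 and 48928 units in control denervated and sham muscle. The ratio of 3′ to 5′ actin signal, which rises when RNA is broken, was 2.76 and 2.32 in genistein denervated and sham muscle and 3.79 and 2.08 in control denervated and sham muscle. The same ratio for Gapdh ran the other way, at 1.13 and 1.198 in genistein denervated and sham muscle and 1.14 and 1.24 in control denervated and sham muscle.

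All 60 genes lay above the floor of 78.9 units, the 40th percentile of all probe sets, on all 4 arrays, so none entered a comparison through 1 group only. Of them, 43 had a mean signal above 1000 units. Values below come from each gene's brightest probe set, and 24 genes had more than 1. Ratios are log2 of deposited signal in denervated over sham muscle, or on genistein over the control diet. Scaling the arrays to 9 hybridisation controls instead (spike-in scaling) moved the median ratio of all genes to 0.50 for denervation on genistein and 0.38 on the control diet, and median scaling moved it to -0.13 for genistein in denervated muscle. The denervation ratio turned in sign for 16 of 60 members on genistein and 13 on control under spike-in scaling, for 9 and 8 under quantile normalization and for 6 and 4 under median scaling, so small ratios carry no firm direction. As a guide to scatter, probe sets of the same gene differed in their denervation ratio by an SD of 0.41 log2 units on the genistein diet and 0.41 on the control diet, over 2975 and 2924 genes. For the genistein ratios this SD was 0.27 in denervated and 0.29 in sham muscle.

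Most translation factor genes had signals in denervated muscle near those in sham muscle. The median log2 ratio of the 60 genes was 0.04 on the genistein diet and 0.14 on the control diet, beside 0.02 and 0.00 over all measured genes. Ratios were above 0 for 39 of 60 members on genistein (51.6% of all measured genes) and 40 on control (49.8% of all). At least 2-fold higher were 2 members on the genistein diet (4.97% of all measured genes) and 2 on the control diet (5.05% of all), and at least 2-fold lower were 1 (6.60% of all) and 0 (7.65% of all). At the smaller fold of 1.5, 4 members were higher and 3 lower on genistein, against 14.5% and 15.4% of all genes. On the control diet 2 were higher and 3 lower, against 14.1% and 17.8% of all genes. Among the 43 members with a mean signal above 1000 units, 1 was at least 1.5-fold higher and 3 lower on genistein (11.8% and 19.7% of all genes that bright). On the control diet these counts were 0 and 3 (12.8% and 19.0%).

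**Figure D1:**
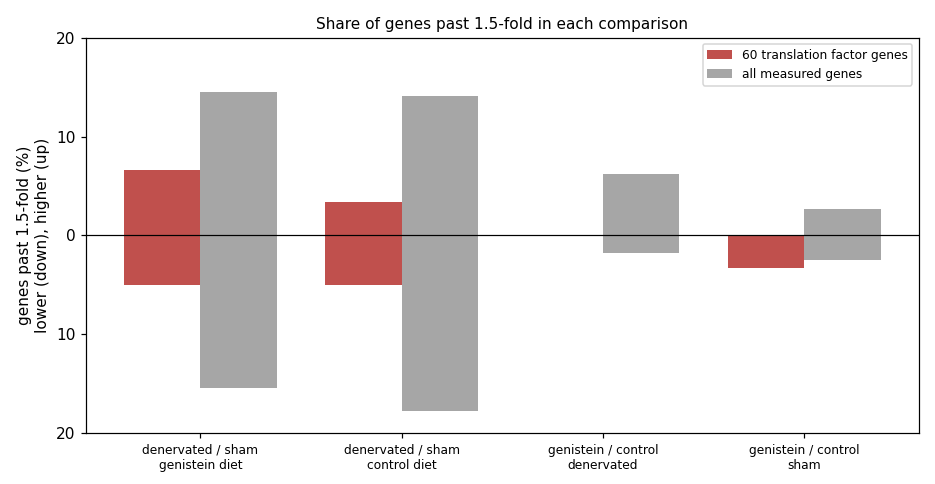
Share of genes at least 1.5-fold higher (bars upward) or lower (bars downward), in percent, for the 60 translation factor genes and for all measured genes in the 4 comparisons, 1 array a group. In denervation on genistein 4 of 60 members were higher and 3 lower, against 14.5% and 15.4% of all genes.

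Across the diets, the log2 ratio was above 0 in both for 33 of 60 members (41.0% of all genes) and below 0 in both for 14 (38.2% of all), and 13 differed in sign or lay at 0. The 2 denervation ratios share no array. As deposited, members at least 1.5-fold higher in both diets were Eef2k and Eef1akmt1 (9.35% of all genes). At least 1.5-fold lower in both were Eif4e and Eif3j (11.3% of all).

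**Figure D2:**
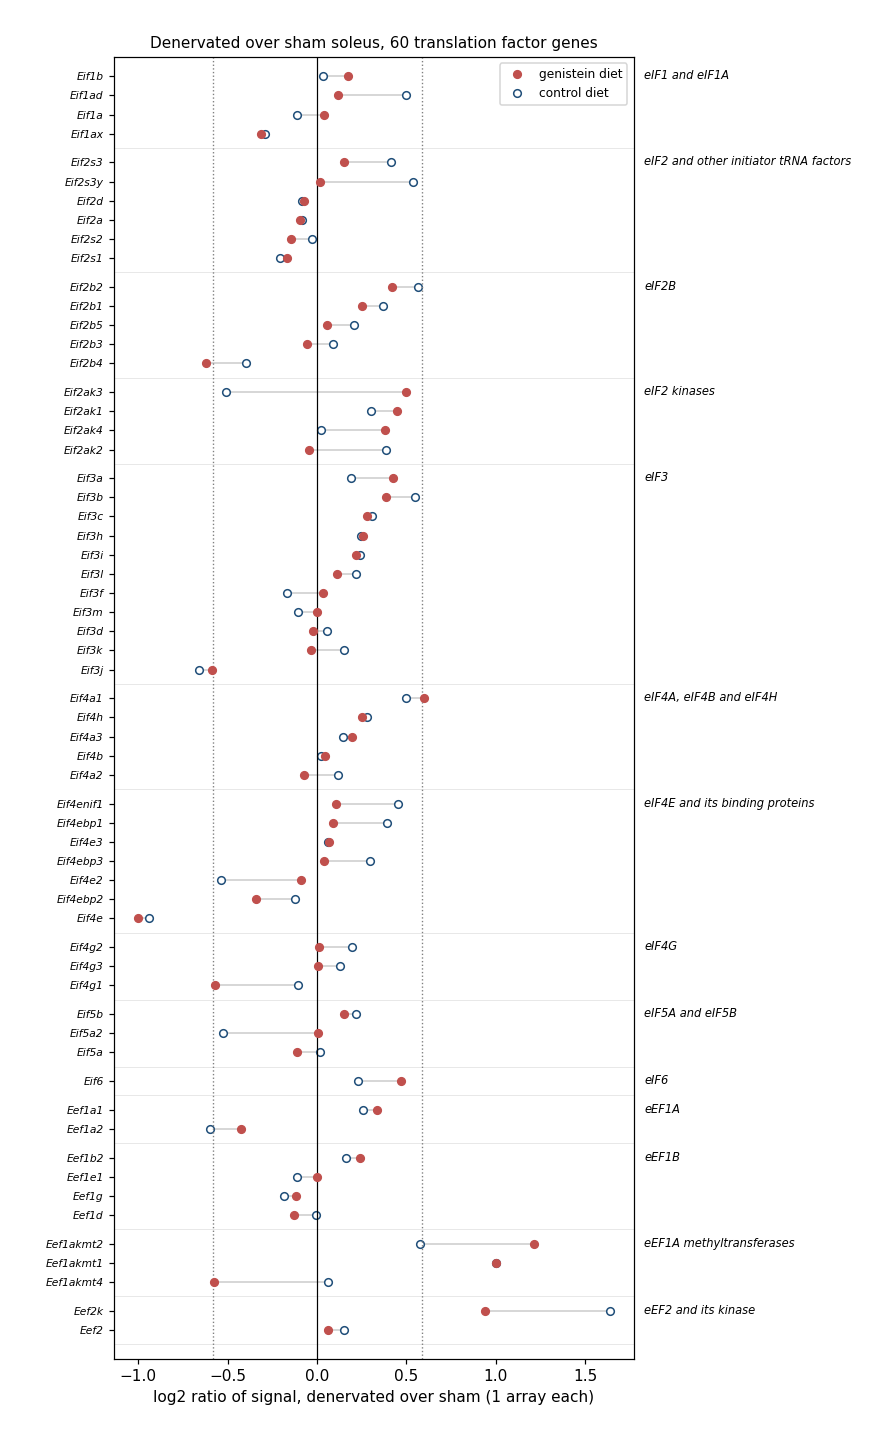
Log2 ratio of signal in denervated over sham muscle for each of the 60 genes, ordered by role, with the genistein diet as filled and the control diet as open points and dotted lines at 1.5-fold. Most points lie within the dotted lines, with Eef2k, Eef1akmt1 and Eif4e outside them in both diets.

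Among the elongation factors the largest ratio on the control diet belonged to Eef2k, while Eef1akmt2 and Eef1akmt1 were above it on genistein. Eef2k encodes the calcium- and calmodulin-dependent kinase that inactivates eEF2. Eef2k read 1374 units in genistein denervated and 717 in genistein sham muscle, and 1640.3 units in control denervated and 526 in control sham muscle. Both denervated pools were above both sham pools. It was 1.92-fold higher on genistein (log2 ratio 0.94) and 3.12-fold higher on the control diet (1.64). A second probe set gave 1.23 and 2.05, and another bright one gave 1.498 and 0.77. A dim one, at 11.7 and 43.3 units in genistein denervated and sham muscle and 31.0 and 105.4 units in control denervated and sham muscle, gave -0.42 on the control diet, so the mean of probe sets was 1.01 there.

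Its substrate gene Eef2 hardly differed between the legs as deposited on its brightest probe set. Eef2 read 7145 units in genistein denervated and 6846 in genistein sham muscle, and 8995 units in control denervated and 8091 in control sham muscle. The ratios were 0.06 and 0.15 on genistein and control, below the probe-set SD. Quantile normalization gave 0.36 and 0.42, and spike-in scaling 0.56 and 0.55. A second probe set, near or below the floor, gave -0.19 on control, where the mean of probe sets was -0.02.

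The 2 eEF1A genes lay on opposite sides of their sham level. Eef1a1 read 21379 and 16943 units in genistein denervated and sham muscle, and 23024 and 19250 units in control denervated and sham muscle (log2 ratios 0.34 and 0.26). Its other probe set gave 0.26 and 0.32. Eef1a2, the muscle form, read 1229 and 1649 units in genistein denervated and sham muscle, and 1274 and 1931 units in control denervated and sham muscle. Both denervated pools were below both sham pools for Eef1a2 and above both for Eef1a1. The Eef1a2 ratios were -0.42 on genistein, which turned to 0.07 under spike-in scaling, and -0.60 on the control diet, a 1.52-fold lower signal.

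The shift of Eef1a1 relative to Eef1a2 was 0.76 log2 units on genistein and 0.86 on the control diet, equal to 1.69-fold and 1.81-fold. It compares changes and not the levels of the 2 genes, which sit on different probe sets. Its size depended on the processing. Under quantile normalization Eef1a1 had 0.94 and 0.71 and Eef1a2 -0.50 and -0.65 on genistein and control, a larger shift. With the mean of probe sets Eef1a1 had 0.30 and 0.29 and Eef1a2 -0.21 and -0.30, a smaller one. The RefSeq annotation names 20 pseudogenes after Eef1a1 and none after Eef1a2, and how far they add to the Eef1a1 signal was not tested. A second Eef1a2 probe set lay below the floor on all 4 arrays. Markers of muscle fibres were lower in denervated muscle too, as deposited. Of the skeletal fibre genes 0 of 4 were above 0, with medians of -0.56 on genistein and -0.48 on control. Of the slow fibre genes 0 of 6 were, with medians of -0.99 and -0.93. The part of the fibres in the Eef1a1 and Eef1a2 ratios was not tested.

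The first bases of the eEF1A and some other factor genes are shown because many translation factor mRNAs begin with a run of pyrimidines, the terminal oligopyrimidine tract through which mTOR sets their translation. The sequences are from RefSeq (GRCr8), each with 15 bases before and 15 from the annotated first base on, in 5′ to 3′ direction of the gene. Capitals mark a C followed by at least 4 C or T letters, starting within 5 bases of the annotated start on the gene's strand, as far as the window holds it.
Eef1a1 (chr8:88225055-88225084, minus strand): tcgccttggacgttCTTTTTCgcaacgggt
Eef1a2 (chr3:188652619-188652648, minus strand): cgctcgggtacatctctgcagctgcgtcct
Eef1b2 (chr9:72074076-72074105, plus strand): tttccggccggtcccggCCCTTTTTCTCCC
Eif3f (chr1:172369047-172369076, plus strand): tcacgcccttccgttctagCCTCTCTCTTT
Eif3m (chr3:111897179-111897208, minus strand): cgtaacaccgtgtggtaccgCTCCTTTTCC
Such a run was found in 16 of the 55 members with a promoter sequence (29.1%), against 18.6% of 9292 measured genes of the array and 19.0% of all 27457 genes in the table. The median denervation ratio of the 16 was 0.10 on genistein and 0.07 on the control diet, and that of the other 39 was 0.02 and 0.15. Eef1a1 has the run and Eef1a2 does not within this window.

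The eEF1B subunits, which return eEF1A to its active form, were bright and stayed under 1.5-fold as deposited on their brightest probe sets. Eef1b2, the catalytic beta subunit, had ratios of 0.24 on genistein and 0.16 on control. These were 0.76 and 0.57 under quantile normalization and 0.73 and 0.56 under spike-in scaling, past 1.5-fold on genistein. Eef1g read 16281 and 17634 units in genistein denervated and sham muscle and 17357 and 19763 units in control denervated and sham muscle. Its ratios of -0.12 and -0.19 turned to 0.41 and 0.23 under quantile normalization, and were positive under spike-in scaling too. Its second probe set, near the floor, gave 0.49 and 0.77, and the mean of probe sets was 0.19 and 0.29, so no direction is given. Eef1d, the delta subunit, had -0.13 and -0.01, and both turned positive under quantile and spike-in scaling. Eef1e1, a part of the tRNA synthetase complex grouped here with eEF1B, had 0.00 and -0.11. The first was -0.03 under median scaling and the second 0.29 under spike-in scaling.

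The eEF1A methyltransferases, which in human cells put methyl groups on single lysines of eEF1A, were dimmer. Eef1akmt1 read 445 and 222 units in genistein denervated and sham muscle, and 443 and 221 units in control denervated and sham muscle. The denervated pools were 2.00-fold and 2.01-fold higher on genistein and control, right at the 2-fold line, and the diets gave almost the same signals. Eef1akmt2 read 424 and 183 units in genistein denervated and sham muscle, and 445 and 298 units in control denervated and sham muscle (1.21 and 0.58). Eef1akmt4, close to the floor at 97.0 to 145 units, had -0.58 on genistein and 0.06 on control. Each of these 3 genes rested on a single probe set.

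**Figure D3:**
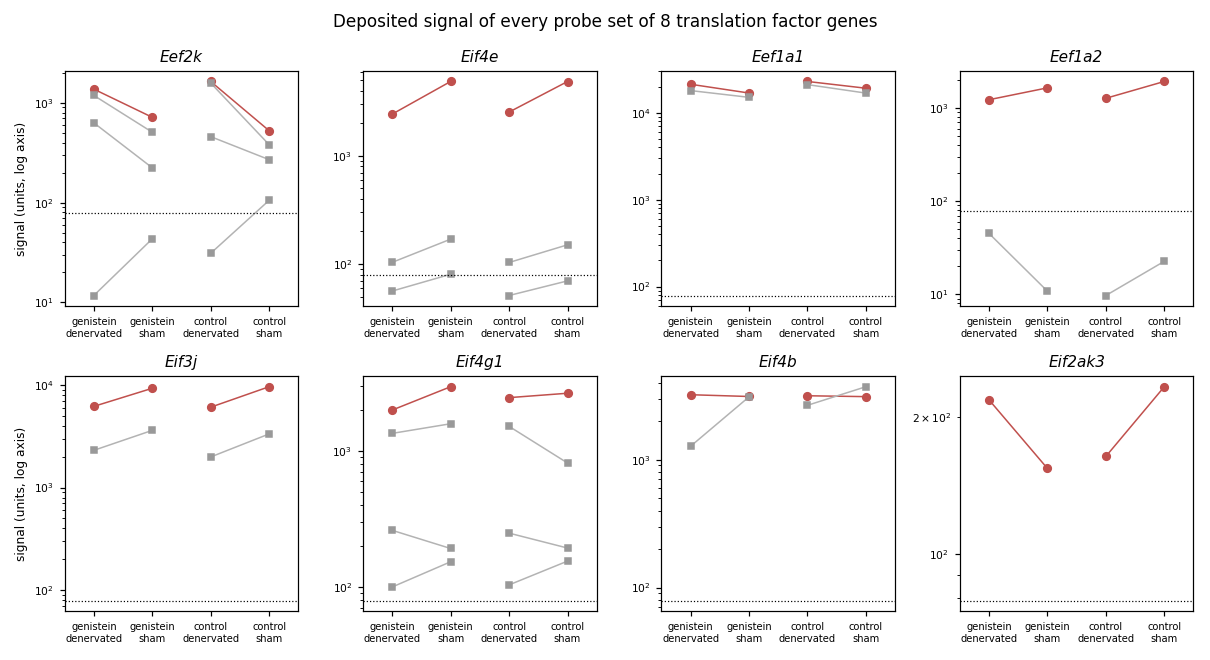
Deposited signal (log axis) of every probe set of 8 genes on the 4 arrays, with the brightest probe set as red circles, others as grey squares, lines joining the legs of a diet and a dotted line at the floor of 78.9 units. The 3 brighter Eef2k probe sets were higher and the dim one lower in denervated muscle, whereas all Eif4e and Eif3j probe sets were lower.

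Among the initiation genes, Eif4e had the lowest ratio in both diets on the brightest probe sets. It lost that rank in both diets with the mean of probe sets. There Eif2b4, Eif4b and Eif3j (each -0.62) were below it on genistein. On control Eif3j (-0.70), Eif4e2 (-0.54) and Eif2ak3 (-0.51) were. Eif4e encodes the cap-binding protein on which the eIF4F complex is built. Eif4e read 2431 units in genistein denervated and 4871 in genistein sham muscle, and 2539 units in control denervated and 4865 in control sham muscle. Both denervated pools were far below both sham pools and the diets differed little. The signal was 2.00-fold lower on genistein (-1.002) and 1.92-fold lower on the control diet (-0.94). A dimmer probe set at 103 to 170 units gave -0.71 and -0.54, and the other was near or below the floor. The mean of probe sets was -0.58 and -0.49. RefSeq names 10 pseudogenes after Eif4e.

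The bases before the starts of Eif4e and Eef2k, members with the lowest ratio in both diets and the highest on the control diet by their brightest probe sets, are shown with the E-box CACGTG in capitals. This palindrome, the same on both strands, is the site bound by Myc and related factors, and Eif4e is known as a Myc target in mammalian cells. Both run 5′ to 3′ on the plus strand from 250 bases before to the last base before the annotated start (RefSeq, GRCr8).
Eif4e (chr2:229740503-229740752): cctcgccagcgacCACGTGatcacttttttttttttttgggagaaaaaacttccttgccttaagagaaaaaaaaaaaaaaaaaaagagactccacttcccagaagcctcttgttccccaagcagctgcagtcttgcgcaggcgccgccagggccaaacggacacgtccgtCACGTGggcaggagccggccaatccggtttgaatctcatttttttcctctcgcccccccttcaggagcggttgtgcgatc
Eef2k (chr1:184824170-184824419): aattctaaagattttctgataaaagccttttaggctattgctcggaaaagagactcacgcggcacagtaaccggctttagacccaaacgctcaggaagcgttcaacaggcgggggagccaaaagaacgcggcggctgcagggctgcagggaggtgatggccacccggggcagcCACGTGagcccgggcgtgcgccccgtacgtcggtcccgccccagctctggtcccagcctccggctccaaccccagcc
In the window of 300 bases (250 before and 50 from the start on), 12 of 55 members held CACGTG (21.8%), against 10.1% of the measured genes of the array and 7.08% of all genes in the table. The 12 members had denervation ratios from -1.002 to 0.94 on genistein and from -0.94 to 1.64 on the control diet. Their medians were 0.05 in both diets, and the other 43 had medians of 0.04 and 0.15. A match is a description of these letters, not of binding.

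The binding proteins of eIF4E, which hold it inactive when mTOR signalling is low, had ratios closer to 0 than Eif4e. Eif4ebp1, the insulin-responsive one, read 1182 and 1111 units in genistein denervated and sham muscle, and 1351 and 1029 units in control denervated and sham muscle. Its ratios of 0.09 and 0.39 were within the probe-set SD, and the control denervated pool was the highest. Eif4ebp2 had -0.34 on genistein and -0.12 on control, both turning positive under spike-in scaling, and Eif4ebp3 had 0.04 (-0.05 under quantile normalization) and 0.30. Eif4enif1, which carries eIF4E into the nucleus and into mRNA storage granules, had 0.10 and 0.46. The cap-binding relatives Eif4e2, a translational repressor, and Eif4e3 had -0.09 and 0.07 on genistein and -0.54 and 0.06 on control. The -0.09 of Eif4e2 was 0.41 under spike-in scaling, and both Eif4e3 ratios were negative under quantile normalization.

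Of the helicase group, Eif4a1, the main eIF4A of dividing cells, read 4264 and 2819 units in genistein denervated and sham muscle, and 4451 and 3154 units in control denervated and sham muscle. It was higher in both denervated pools, by 1.51-fold and 1.41-fold (0.60 and 0.50). Eif4a2, the form abundant in muscle and brain, had -0.07 on genistein and 0.12 on control, and quantile normalization gave 0.49 and 0.56. Its second probe set gave 0.60 and 0.44, and the mean of probe sets 0.26 and 0.28. Eif4a3, an exon junction protein, had 0.20 and 0.15, and Eif4h, a helicase cofactor, 0.25 and 0.28. Eif4b, the other cofactor, had 0.05 and 0.02 on its brightest probe set. Its second probe set read 1272 and 3094 units in genistein denervated and sham muscle and 2657 and 3712 units in control denervated and sham muscle, giving -1.28 and -0.48. The probe sets of Eif4b therefore disagreed most on the genistein denervated array.

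The eIF4G scaffolds also had probe sets that disagreed. Eif4g1 read 1986 and 2948 units in genistein denervated and sham muscle, and 2451 and 2640 units in control denervated and sham muscle (-0.57 and -0.11, the second 0.29 under spike-in scaling). Its 4 probe sets ranged from -0.62 to 0.44 on genistein and from -0.58 to 0.89 on control, so no direction is given. Eif4g2, a scaffold that lacks the eIF4E-binding part, had 0.01 and 0.20 on its brightest probe set. Its other probe sets reached 0.55 and 0.77, and all 3 were above 0 in both diets, although median scaling took the brightest to -0.02 on genistein. Eif4g3 had 0.01 (-0.02 under median scaling) and 0.13.

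The genes of eIF2 and of the other initiator tRNA factors differed by less than 1.5-fold between the legs as deposited. Eif2s1, the alpha subunit that the stress kinases phosphorylate, read 2575 and 2895 units in genistein denervated and sham muscle, and 2693 and 3110.3 units in control denervated and sham muscle. Its ratios of -0.17 and -0.21 turned to 0.33 and 0.19 under spike-in scaling. The 6 genes ranged from -0.17 to 0.15 on genistein and from -0.21 to 0.54 on control. Eif2s3 and its Y-linked copy Eif2s3y had 0.15 and 0.02 on genistein and 0.41 and 0.54 on control, and these near-identical copies may share signal.

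The 5 subunit genes of eIF2B did not share a direction. Eif2b4, the delta subunit, read 1756 and 2702 units in genistein denervated and sham muscle, and 1991 and 2625 units in control denervated and sham muscle (-0.62 and -0.40). Both denervated pools were below both sham pools. Eif2b2, the beta subunit, was higher in both denervated pools, at 764 and 572 units in genistein denervated and sham muscle and 867 and 586 units in control denervated and sham muscle (0.42 and 0.56). Eif2b5, the catalytic epsilon subunit, had 0.05 and 0.21, the first -0.02 under quantile normalization. A second Eif2b5 probe set gave -0.48 and -0.33, and the mean of both -0.21 and -0.06. Eif2b1 had 0.25 and 0.37, and Eif2b3 -0.06 (0.44 under spike-in scaling) and 0.09.

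Of the eIF2 kinases, Eif2ak1, the haem-regulated kinase, was higher in both denervated pools (0.45 and 0.30), and its other probe set gave 0.48 and 0.62. Eif2ak2, the kinase activated by double-stranded RNA, had -0.05 on genistein, 0.45 under spike-in scaling, and 0.38 on control. Eif2ak4, the amino acid sensor GCN2, had 0.38 on genistein and 0.02 on control, the second at 0 under quantile normalization. Eif2ak3, the endoplasmic reticulum kinase PERK, read 218 and 154 units in genistein denervated and sham muscle, and 164 and 233 units in control denervated and sham muscle. Its ratio was 0.50 on genistein and -0.51 on control, opposite in direction, on 1 probe set.

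In eIF3, the large complex that links the ribosome to eIF4G, 8 of 11 genes had a ratio above 0 in each diet. Of all 60 members 39 on genistein and 40 on control did, and of all measured genes 51.6% and 49.8%. The eIF3 medians were 0.11 on genistein and 0.19 on control. With the mean of probe sets they were 0.21 and 0.03, with 6 of 11 above 0 on control. Eif3b, a core subunit, read 2228 and 1704 units in genistein denervated and sham muscle, and 2502 and 1710.4 units in control denervated and sham muscle (0.39 and 0.55). Eif3j, a loosely bound subunit at the mRNA entry channel, stood apart. Eif3j read 6185 and 9282 units in genistein denervated and sham muscle, and 6072 and 9614 units in control denervated and sham muscle. Both denervated pools were below both sham pools by 1.5-fold and 1.58-fold (-0.59 and -0.66), and the other probe set gave -0.65 and -0.75. The genistein ratio lay right at the 1.5-fold line. Quantile normalization gave -0.33 and -0.41 on genistein and control, and spike-in scaling -0.09 and -0.27.

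The remaining initiation factors differed by less than 1.5-fold between the legs as deposited on their brightest probe sets. Eif6, which keeps the large ribosomal subunit from joining too early, read 1639 and 1184 units in genistein denervated and sham muscle, and 1866 and 1594 units in control denervated and sham muscle (0.47 and 0.23). Eif5b, the GTPase of subunit joining, had 0.15 and 0.22, and its 3 probe sets reached 0.92 on control. Eif5a, the factor modified with hypusine, had -0.11 and 0.01, the first 0.38 under spike-in scaling. Eif5a2 was close to the floor at 88.5 to 128 units. Eif1ax, a scanning factor, had -0.31 and -0.29, both positive under spike-in scaling, and Eif1a had 0.04 (-0.03 under quantile normalization) and -0.11 (0.29 under spike-in scaling) on its brightest probe set. The other 3 Eif1a probe sets, all above the floor, gave 0.70, 0.70 and 0.73 on genistein and 0.36, 0.18 and 0.33 on control, and the mean of probe sets was 0.54 and 0.19. No probe set is paired with Eif1 alone in the annotation used here.

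**Figure D4:**
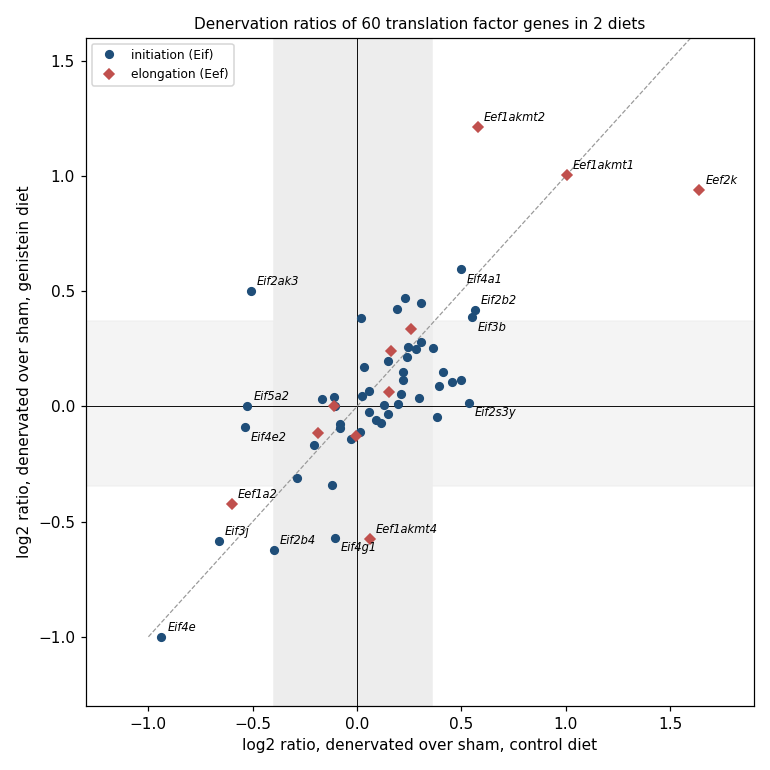
Log2 denervation ratio of the 60 genes on the control diet (x axis) and on the genistein diet (y axis), with initiation genes as blue circles and elongation genes as red diamonds. Grey bands mark the middle 50% of all genes in each diet (-0.40 to 0.36 on control, -0.34 to 0.37 on genistein), the dashed line marks equal ratios, and Eif2ak3 lies to the upper left.

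The 37 genes of a translation list outside the Eif and Eef names had 33 on the array. On genistein 1 of the 33 was at least 1.5-fold higher and 6 lower (14.5% and 15.4% of all genes), and on control 2 and 4 (14.1% and 17.8% of all genes), with medians of 0.01 in both diets. Impact, an inhibitor of the kinase GCN2, read 1330.3 and 687 units in genistein denervated and sham muscle, and 1226 and 576 units in control denervated and sham muscle (1.94-fold and 2.13-fold higher). Atf4, the transcription factor translated when eIF2 is phosphorylated, read 4927 and 8808 units in genistein denervated and sham muscle, and 4911 and 8741 units in control denervated and sham muscle (-0.84 and -0.83). Ddit3, a target of Atf4, was lower too (-1.41 and -1.37). Mtor had 0.01 and 0.45, and Rps6kb1, the S6 kinase, 0.50 and 0.45.

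Markers of other cells differed between the arrays beside these ratios. The 7 fibroblast and matrix genes summed to 39965 and 53432 units in genistein denervated and sham muscle and to 23445 and 52493 units in control denervated and sham muscle, and 5 and 7 of the 7 were lower after denervation. The 4 endothelial genes on the array summed to 1893 and 2813 units in genistein denervated and sham muscle, and 1317 and 2877 units in control denervated and sham muscle. Both lists were thus lower in the denervated pools, and most so on the control diet. The 6 macrophage genes summed to 1929 and 1627 units in genistein denervated and sham muscle, and 1027 and 1406 units in control denervated and sham muscle. The 5 adipocyte genes, with Lep below the floor on all arrays, summed to 4738 and 6098 units in genistein denervated and sham muscle, and 3162 and 6438 units in control denervated and sham muscle. That sum was mostly Fabp4. Adipoq, Plin1 and Cidec were higher in genistein denervated than in genistein sham muscle, by 0.95, 1.39 and 1.06 log2 units, whereas Fabp4 had -0.57. Cidec was below the floor on the other arrays. On the control diet Adipoq, Plin1 and Fabp4 had 0.05, -0.18 and -1.14. The 3 Schwann cell genes on the array, with Sox10 below the floor, summed to 4239.9 and 3329.6 units in genistein denervated and sham muscle, and 3203 and 3198 units in control denervated and sham muscle. Macrophage and Schwann cell sums were highest in the genistein denervated pool. The 2 erythrocyte genes summed to 6554 and 7619.6 units in genistein denervated and sham muscle, and 10349 and 15415 units in control denervated and sham muscle. The 1 satellite cell marker on the array, Cdh15, read 257 and 395 units in genistein denervated and sham muscle, and 386 and 448 units in control denervated and sham muscle. The part of these cells in the translation factor ratios was not tested.

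The diets were then compared within each leg. In denervated muscle 0 of 60 members passed 1.5-fold in either direction, where 6.20% of all genes were higher and 1.80% lower. The nearest was Eef1akmt4 at -0.58, reading 97.0 units on genistein and 144.5 on the control diet. Small differences leaned downward, with 47 of 60 members below 0 (49.9% of all genes) and a median of -0.11 beside 0.00 for all genes and -0.06 for genes with a mean signal above 1000 units. Beside this lean, muscle fibre markers were also lower on genistein in denervated muscle, with 4 of 4 skeletal fibre genes (median -0.33) and 6 of 6 slow fibre genes (-0.32) below 0. Fibroblast and endothelial markers were higher, with 7 of 7 (0.73) and 4 of 4 (0.50) above 0. So were 5 of 5 measured macrophage (0.92), 4 of 4 measured adipocyte (0.98) and 2 of 2 measured Schwann cell genes (0.53). Of the adipocyte genes, Cidec was above the floor only in the genistein denervated pool, so the floor rule fixed its direction. Adipoq, Plin1 and Fabp4 had 0.91, 1.33 and 0.49. Erythrocyte genes, with 0 of 2 above 0 (-0.71), and the satellite cell marker Cdh15 (-0.59) were lower. The part of these cells in the lean was not tested. The members' median was -0.24 under median scaling and 0.00 under spike-in scaling, and counted against the median of all genes 13 of 60 members were above it under each of these scalings and 21 of 60 under quantile normalization.

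In sham muscle 2 members were at least 1.5-fold lower on genistein (2.50% of all genes) and 0 higher (2.70% of all). They were Eef1akmt2, at 183 units on genistein and 298 on control (-0.70), and Eif2ak3, at 154 units on genistein and 233 on control (-0.60). With the floor at the 60th percentile of 217.5 units neither passed. The members' median was -0.06, with 37 of 60 below 0 (49.4% of all genes).

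**Figure D5:**
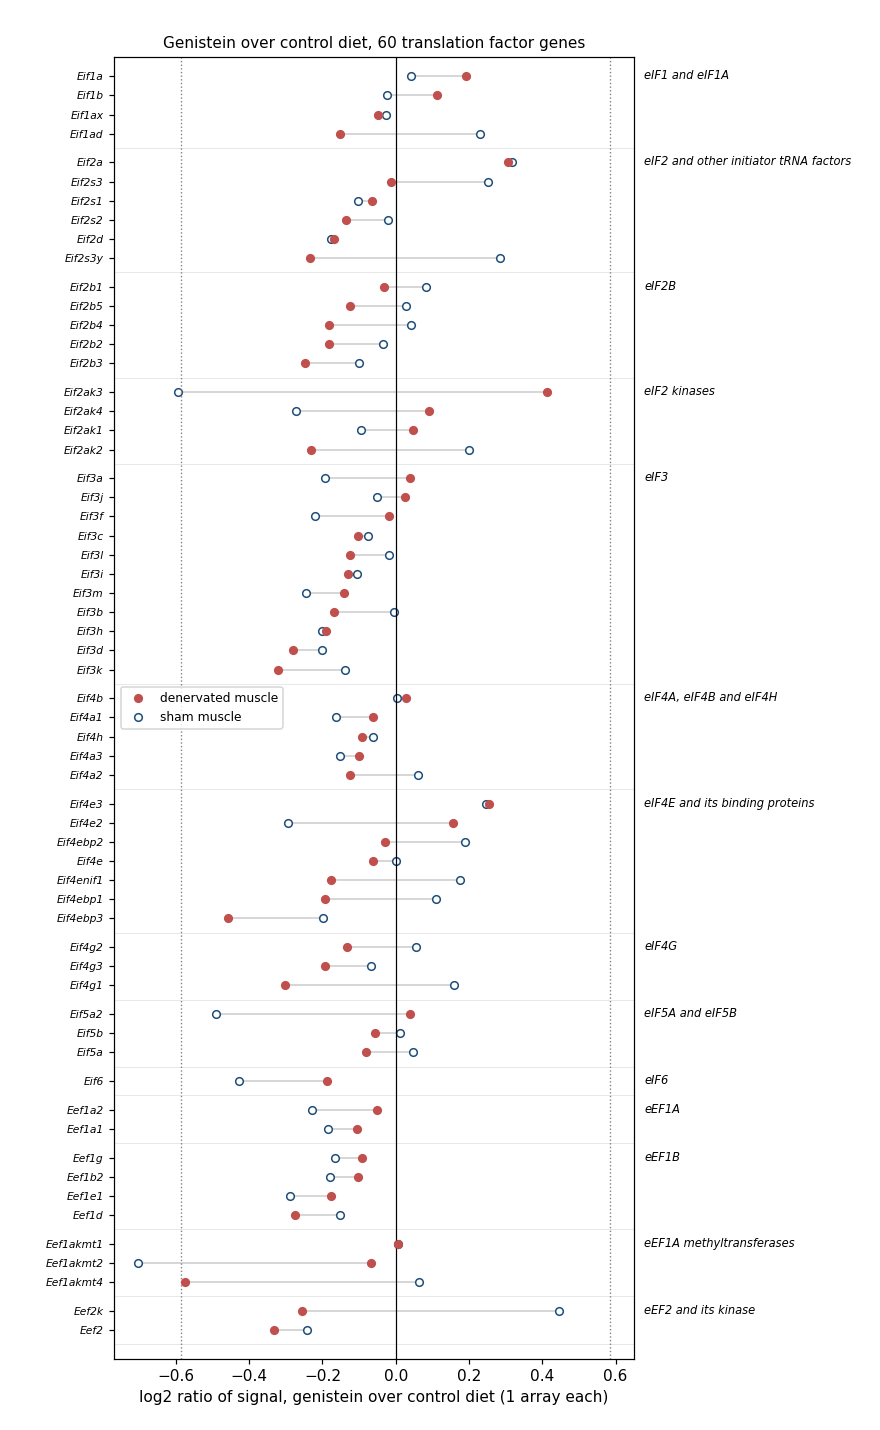
Log2 ratio of signal on genistein over control diet for each of the 60 genes, ordered by role, in denervated (filled) and sham (open) muscle, with dotted lines at 1.5-fold. In denervated muscle 47 of 60 members lie left of 0, against 49.9% of all genes. Of the 11 eIF3 genes 9 do (8 under quantile normalization or spike-in scaling). Eef1akmt2 and Eif2ak3 pass the line in sham muscle.

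Most core elongation factor and eIF3 genes read slightly lower on genistein in both legs, and these groups were singled out after their values were seen. In denervated muscle the lean was not particular to these groups. There 47 of 60 members were below 0 (49.9% of all genes), among them 5 of 5 eIF2B genes (median -0.18) and 3 of 3 eIF4G genes (-0.19). In sham muscle 37 of 60 members were below 0 (49.4% of all genes). All 7 genes of eEF1A, eEF1B and Eef2 had a ratio below 0 in both legs as deposited. The 7 include Eef1e1, a part of the tRNA synthetase complex and not a core elongation factor. In denervated muscle 4 of 7 were below 0 under quantile normalization and 5 of 7 under spike-in scaling. The medians of the 7 were -0.11 in denervated and -0.18 in sham muscle. Eef2 read 7145 units on genistein and 8995 on control in denervated muscle (-0.33), and 6846 units on genistein and 8091 on control in sham muscle (-0.24). In eIF3, 9 of 11 genes were below 0 in denervated and 11 of 11 in sham muscle, with medians of -0.13 and -0.14, and with the mean of probe sets 7 and 9 of 11 were. Under quantile normalization these counts were 8 and 9, and under spike-in scaling 8 and 11. Of these groups in denervated muscle, Eef2, Eif3k (-0.32), Eif3d (-0.28) and Eef1d (-0.275) exceeded the probe-set SD of 0.27 as deposited. Under spike-in scaling none of them did, with Eef2 at -0.23, Eef1d at -0.17 and the lowest eIF3 gene at -0.22. Quantile normalization gave -0.24 for Eef2. Median scaling moved the other way, to -0.47 for Eef2, -0.41 for Eef1d and -0.46 for the lowest eIF3 gene. The second Eif3k probe set gave -0.16 as deposited.

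The denervation ratio on genistein minus that on control had a median of -0.03 over the 60 members, beside 0.00 over all genes. It passed 1.5-fold in 4 members, against 13.2% of all genes. These were Eif2ak3 (1.01), Eef1akmt2 (0.64), Eef1akmt4 (-0.64) and Eef2k (-0.70). For Eef2k, 1 of the other bright probe sets gave a difference in the same direction and the other in the opposite one, as their ratios above show. The genistein ratio in each leg shares an array with the denervation ratio of each diet, so these values do not stand apart from each other.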

How the data were processed

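Per the labels, biotin-labelled RNA from a pool of 8 rats per group was hybridised to 1 Affymetrix array. The values are the authors' deposited intensities, on a linear scale for each probe set, made with GCOS 1.1 per the submitters' processing notes. The scaling target and any genome build are not given in the sources used here, but the mean deposited signal without the lowest and highest 2% of probe sets was 500.2 on each array, so no further scaling was applied. Control probe sets (57 of 31099) were set aside. Of the others 20826 had 1 gene symbol, 436 several and 9780 none listed. Signals under the floor were raised to it before log2, and a gene was measured when either array of a comparison was above it.

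Each gene was represented by its brightest probe set, judged on mean log2 signal over the arrays. With 1 array a group no test was run. Folds describe these arrays, and their number limits the precision. Named members were 26 fixed names, the 6 highest and 6 lowest shared denervation ratios and members 1.5-fold apart between diets, and other members, given to complete their role groups, were named after their values were seen. Members and lists were chosen with earlier results of these data known. Promoters came from RefSeq (GRCr8), matched by gene ID for 55 of 60 members. Ratios were computed with Python 3.11.15 and pandas 2.3.3 and tested on simulated data. Alternatives were 3 scalings, 2 floors, the mean of probe sets, and no floor with a pseudocount of 16.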

Additional observations from a re-analysis of the deposited data

Results flagged for a closer look

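Eif2ak3, the gene of the kinase PERK, was the 1 member whose denervation ratio was opposite between the diets with at least 1.2-fold on each side. It was 0.50 on genistein and -0.51 on the control diet, a difference of 1.01 log2 units. The difference was not tested, since each value comes from 1 array and 1 probe set. Its signals lay between 154 and 233 units, and with the floor at the 60th percentile the ratio on genistein was 0.00. That floor of 217.5 units also lies above the control denervated signal of 164 and just under the control sham signal of 233. The ratio on control therefore shrank as well.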

How the results depend on the processing

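The members' medians became 0.54 and 0.54 for denervation on genistein and control under spike-in scaling, 0.22 and 0.19 on control under median and quantile scaling, and 0.10 on genistein and 0.077 on control with the mean of probe sets. For genistein in denervated muscle the median was -0.24, -0.054 and -0.0038 under median, quantile and spike-in scaling. The difference between diets became -0.14 under median scaling and reversed to 0.070 under spike-in scaling.

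Counts of members at least 1.5-fold higher in denervation became 26 and 26 on genistein and control under spike-in scaling, 8 on genistein under quantile normalization and 6 on control under median scaling. Counts of lower members became 0 and 0 under spike-in scaling, 5 and 1 under median scaling, and 1 on control with the mean of probe sets. Lower members with genistein in denervated muscle were 2 under median and 1 under quantile scaling. In sham muscle they were 0 with the floor at the 60th percentile and 1 with no floor. Of the ratios of single named members, 32 of 128 moved by more than the probe-set SD under spike-in scaling, 8 under quantile normalization, 8 with the mean of probe sets and 3 of 124 with the higher floor. None did under the lower floor, median scaling or no floor, and no ratio past 1.5-fold changed sign. Spike-in scaling moves all ratios of a comparison by nearly the same amount. The 32 were the denervation ratios on genistein, and those on control moved by slightly less than the SD. Members near the floor are limited by signal over background. No paired analysis was possible because each group is 1 array, so the groups share fewer than 2 replicate numbers.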

Other observations

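The translation factors of mitochondria, which make the few proteins encoded by the organelle's own genome, mostly read lower in denervated muscle as deposited. Tufm, the mitochondrial counterpart of eEF1A, read 1987 and 3940 (3939.7) units in genistein denervated and sham muscle, and 2293 and 3934 units in control denervated and sham muscle (log2 ratios -0.99 and -0.78). With the mean of probe sets Tufm had -0.675 on genistein and -0.52 on control, and under spike-in scaling -0.49 and -0.38. Gfm1, the counterpart of eEF2, had -0.90 and -0.92, and Tsfm, which recharges Tufm, -0.61 and -0.48. Of the 6 such genes of the list on the array, 5 were below 0 in both diets (38.2% of all genes), with medians of -0.47 on genistein and -0.40 on control. Under spike-in scaling 3 of the 6 were below 0 in each diet, with Gfm2 and Mtif2 above 0, and the medians were 0.03 and 0.00. Mtfmt, which formylates the initiator tRNA of mitochondria, went the other way at 0.52 and 0.51. In the genistein comparisons none of the 6 passed 1.5-fold.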
